A study of Mus musculus with 24 samples.

Results

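Notch signalling in the developing mouse retina was followed through 9 of its genes: the receptors Notch1 and Notch2, the ligands Dll1, Dll4 and Jag1, and the nuclear factors Hes1, Hes5, Hes6 and Hey1. They were taken as every probe set that the platform annotation assigns to 1 of these symbols alone, which gave 15 of the 22690 probe sets and 9 of the 12393 named genes on the array. No measured value entered that choice of probe sets, but the genes were chosen with earlier results of these data known. Total RNA from the retina of C57Bl/6 pups was hybridised to 24 arrays in 8 groups of 3. In 4 groups the pups were kept in room air and were 7, 8, 10 or 12 days old. In the other groups pups of the same ages had been in hyperoxia, for 12 h by day 7, 24 h by day 8, 72 h by day 10 and 120 h by day 12. Age and length of exposure change together in the hyperoxia groups and cannot be told apart there. The labels give no oxygen concentration, and they do not state whether the arrays of a group came from separate animals, so the p-values reflect the spread among these arrays alone, which may be technical.

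Notch receptors are cleaved when a Delta-like or Jagged ligand on a neighbouring cell binds them, and the released intracellular domain joins the DNA-binding protein RBPJ to switch on genes such as Hes1, Hes5 and Hey1. Their products are basic helix-loop-helix repressors that hold back neurogenic factors. In the retina this signal is known to keep progenitors undifferentiated and to favour Müller glia, and in vessels Dll4, Jag1 and Notch1 are known to balance sprouting and stable endothelial cells.

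The proximal promoters of 3 genes are shown, 1 for each role and chosen after their values were seen: the receptor Notch1 and the target Hes5, which fell with age, and the ligand Jag1, which rose on 1 of its probe sets. The letters are the 250 bases before the RefSeq start site in GRCm38.p6, written 5′ to 3′ on the strand of the gene. They lie at chr4:154960673-154960922 on the plus strand for Hes5, at chr2:26503823-26504072 on the minus strand for Notch1 and at chr2:137116521-137116770 on the minus strand for Jag1. Capitals mark matches, on either strand, to GTGGGAA, the core word bound by RBPJ, or to CACNAG, the N box bound by Hes repressors.
Hes5: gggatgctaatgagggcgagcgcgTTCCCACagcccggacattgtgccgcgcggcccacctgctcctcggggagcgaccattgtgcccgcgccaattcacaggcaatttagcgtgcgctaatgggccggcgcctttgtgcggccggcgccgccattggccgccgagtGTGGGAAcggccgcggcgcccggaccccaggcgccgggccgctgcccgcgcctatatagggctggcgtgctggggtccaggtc
Notch1: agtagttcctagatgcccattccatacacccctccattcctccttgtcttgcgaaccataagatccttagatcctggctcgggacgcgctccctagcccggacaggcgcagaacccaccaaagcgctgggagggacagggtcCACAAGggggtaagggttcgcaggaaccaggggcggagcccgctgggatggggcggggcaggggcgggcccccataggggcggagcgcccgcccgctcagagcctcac
Jag1: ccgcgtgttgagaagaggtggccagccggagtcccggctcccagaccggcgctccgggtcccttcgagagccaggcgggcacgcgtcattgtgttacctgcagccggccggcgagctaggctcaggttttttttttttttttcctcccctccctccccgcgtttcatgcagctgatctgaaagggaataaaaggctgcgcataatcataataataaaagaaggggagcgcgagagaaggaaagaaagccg

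Windows of this length could be read for 7 of the 9 genes, at 9 start sites; those of Hes1 and Hey1 were not used here. GTGGGAA occurred in the Hes5 window at 2 places, starting at -226 on the minus strand and at -83 on the plus strand relative to the start site, and in none of the other windows. Across 32851 RefSeq windows of the same length, 5.42% held it and 0.161% held at least 2 matches. CACNAG stood in the Notch1 window at -108, in the Dll4 window at -75, in the Notch2 window at -247 and in the window of 1 of 2 Hes6 start sites at -237, against 36.7% of all windows. The 2 words do not overlap in these windows, and a match describes letters only.

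Values below are log2 intensities after quantile normalization, with a floor of 7.08 under the dimmest readings, and each probe set is compared only with itself. Of the 15 probe sets, 13 passed a filter on the mean over all 24 arrays, at 7.90. The other two, 1421827_at for Dll4 with a mean of 7.83 and 1451889_at for Notch2 with a mean of 7.87, were not tested. Every test is a contrast in 1 limma fit over all groups and 15838 probe sets. "Passed" means a Benjamini-Hochberg adjusted p under 0.05 over all of them, and errors of differences are standard errors of that fit. The rod gene Nrl lay between 14.68 and 14.93 on all arrays and the glial gene Glul between 12.10 and 14.02, both markers of the labelled tissue. The lens crystallin Cryaa ran from the floor to 14.97, and a mean over 13 lens genes ran from 7.22 to 13.61 with the extremes both in room air at day 12. The 2 arrays farthest from their group means were room air day 8 replicate 1 and hyperoxia day 12 replicate 2. In bulk tissue, fewer cells of a type and less RNA per cell cannot be told apart.

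With age, in room air, the Notch1 receptor and the factors Hes5 and Hes6 fell and the ligand Jag1 rose, while Hes1, Hey1 and the other genes did not pass. Between days 7 and 12, 7 of the 13 probe sets passed, 6 lower and 1 higher, where 5.2% of all probe sets tested passed lower and 7.14% higher. In hyperoxia 9 of 13 passed, 8 lower and 1 higher, against 6.64% and 5.95% of all probe sets. The 6 probe sets of Notch1, Hes5 and Hes6 were lower and 1 of Jag1 was higher in both conditions, against 3.08% and 4.22% of all probe sets. Those 6 are 2 per gene and not separate genes, so the count by gene is smaller. The median difference over the 13 was -0.41 in room air and -0.62 in hyperoxia, and the median over all probe sets was -0.03 in each. The arrays of days 7 and 12 did not overlap for 10 of the 13 in room air, 8 lower and 2 higher, against 28.3% of all probe sets, and for 9 in hyperoxia, 8 lower and 1 higher, against 26.4%.

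**Figure D1:**
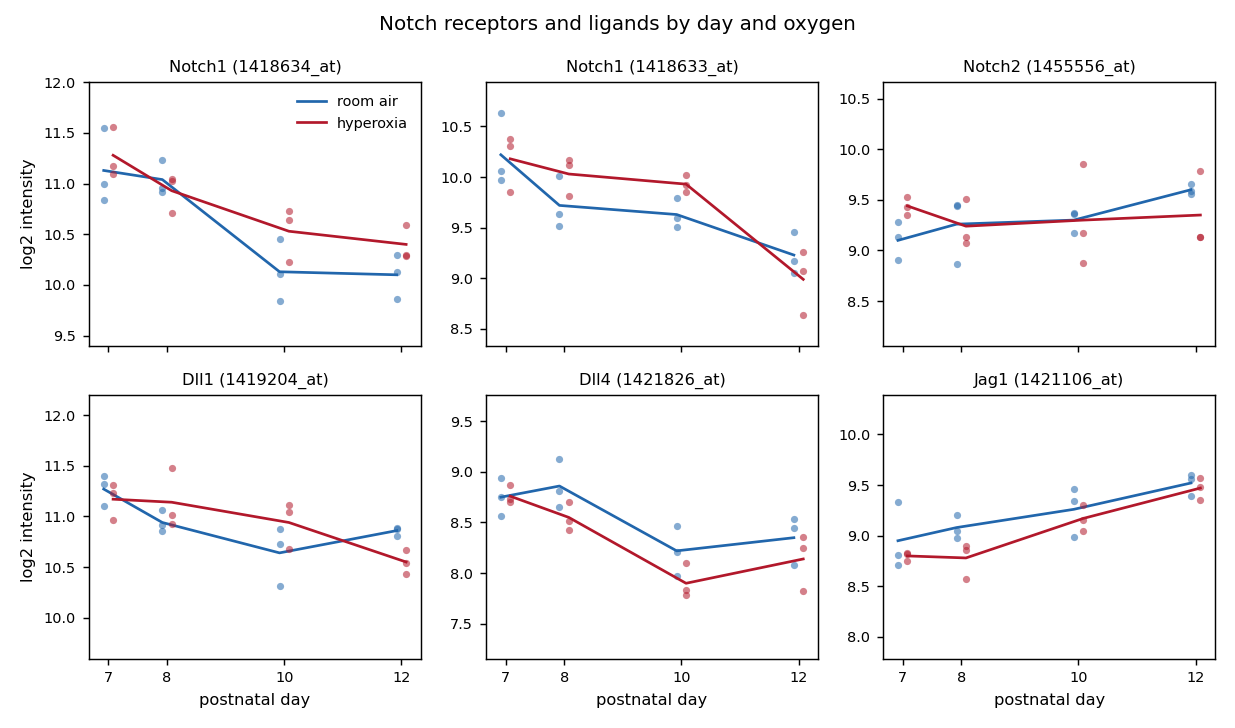
Log2 intensity (vertical axis) against postnatal day (horizontal axis) for 6 probe sets of Notch receptors and ligands. Points are single arrays and lines join the means of 3 arrays, in blue for room air and in red for hyperoxia; both Notch1 probe sets go down from day 7 to day 12 and Jag1 1421106_at goes up, from 8.95 to 9.52 in room air.

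Notch1, a receptor known from retinal progenitors, has 2 probe sets that both fell with age. On 1418634_at the room air arrays read 11, 10.84 and 11.55 at day 7, 10.96, 10.92 and 11.23 at day 8, 9.84, 10.11 and 10.45 at day 10 and 10.30, 10.13 and 9.86 at day 12. The arrays of days 7 and 8 all lay above those of days 10 and 12, without overlap. In hyperoxia they read 11.10, 11.17 and 11.56 at day 7, 10.71, 11.05 and 11.03 at day 8, 10.64, 10.23 and 10.73 at day 10 and 10.29, 10.59 and 10.30 at day 12. Here day 10 overlapped with days 8 and 12, and days 7 and 12 stood apart.

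From day 7 to day 12, 1418634_at of Notch1 fell by 1.03 ± 0.20 in room air, 2.04-fold, from 11.13 ± 0.37 to 10.10 ± 0.22 (SD, n = 3; limma adjusted p = 0.00148). In hyperoxia it fell by 0.88 ± 0.20, 1.84-fold (limma adjusted p = 0.00517). On 1418633_at, Notch1 went from 10.06, 9.97 and 10.63 at day 7 to 9.46, 9.17 and 9.05 at day 12 in room air, and fell by 0.99 ± 0.19 (limma adjusted p = 0.00176). The hyperoxia arrays of that probe set went from 9.85, 10.31 and 10.38 to 9.07, 8.64 and 9.26, and fell by 1.19 ± 0.19 (limma adjusted p = 0.000375). Day 7 and day 12 did not overlap in either condition. The 2 probe sets had a Pearson r of 0.69 over the 24 arrays.

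The 2 Notch1 probe sets had different values at the single steps, a difference that was not tested. In room air 1418634_at fell by 0.90 ± 0.20 between days 8 and 10 (limma adjusted p = 0.0293), with differences of -0.09 ± 0.20 between days 7 and 8 and -0.04 ± 0.20 between days 10 and 12. The same 3 steps on 1418633_at were -0.50 ± 0.19 from day 7 to 8, -0.09 ± 0.19 from day 8 to 10 and -0.41 ± 0.19 from day 10 to 12, none of which passed (limma adjusted p = 0.983, 0.905 and 0.752). In the order of the 8 group means, 1418634_at ran from hyperoxia day 7 at 11.28 to room air day 12 at 10.10, and its widest step between neighbours, 0.40, separated hyperoxia day 8 from hyperoxia day 10. For 1418633_at the order ran from room air day 7 at 10.22 to hyperoxia day 12 at 8.99, with the widest step, 0.41, between room air day 10 and room air day 12; the other neighbours differed by 0.24 or less, beside a median within-group SD of 0.23.

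Notch2, a receptor that binds the same ligands, did not follow Notch1. Its probe set 1455556_at read 8.91, 9.28 and 9.13 at day 7 and 9.56, 9.59 and 9.66 at day 12 in room air, so the groups did not overlap, and the difference of 0.50 ± 0.22 did not pass (limma adjusted p = 0.147). In hyperoxia the arrays read 9.43, 9.35 and 9.53 at day 7 and 9.13, 9.13 and 9.78 at day 12, which overlap, with a difference of -0.09 ± 0.22. All 8 group means of this probe set lay between 9.10 and 9.60, and no neighbours in their order were more than 0.17 apart. The untested probe set 1451889_at ranged from 7.35 to 8.40 over all arrays, and the 2 had a Pearson r of 0.07.

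Dll1, a ligand carried by newly forming neurons, had its highest group mean in room air at day 7 and its lowest in hyperoxia at day 12. The room air arrays read 11.32, 11.10 and 11.40 at day 7, 10.92, 10.86 and 11.06 at day 8, 10.73, 10.88 and 10.31 at day 10 and 10.88, 10.89 and 10.81 at day 12. All arrays of days 8, 10 and 12 were below those of day 7, and the difference of -0.41 ± 0.16 between days 7 and 12 did not pass (limma adjusted p = 0.104). In hyperoxia they read 11.31, 10.96 and 11.23 at day 7, 10.93, 11.48 and 11.01 at day 8, 10.68, 11.04 and 11.11 at day 10 and 10.67, 10.43 and 10.54 at day 12. There Dll1 fell by 0.62 ± 0.16 from day 7 to day 12, 1.53-fold (limma adjusted p = 0.0142), and the day 12 arrays lay below all others in hyperoxia. The call was lost under 6 of 34 other settings, among them leaving out hyperoxia day 7 replicate 1 or 3 or day 12 replicate 2 (limma adjusted p from 0.0542 to 0.0654) and a fit with the levels of lens and pigment epithelium markers as covariates (limma adjusted p = 0.213).

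Dll4, the ligand of endothelial tip cells that is also made by retinal progenitors, had its lowest mean of each condition at day 10 on 1421826_at. Days 10 and 12 overlapped there in both conditions. On 1421826_at the room air arrays read 8.75, 8.94 and 8.56 at day 7, 8.81, 9.13 and 8.65 at day 8, 7.97, 8.47 and 8.21 at day 10 and 8.53, 8.08 and 8.45 at day 12. The hyperoxia arrays read 8.70, 8.87 and 8.73 at day 7, 8.51, 8.43 and 8.70 at day 8, 7.83, 7.78 and 8.10 at day 10 and 8.36, 8.25 and 7.82 at day 12. In both conditions days 7 and 12 stood apart. Dll4 fell by 0.62 ± 0.17 in hyperoxia, 1.54-fold (limma adjusted p = 0.0196), and differed by -0.40 ± 0.17 in room air, which did not pass (limma adjusted p = 0.141). The step from day 8 to day 10 in room air was -0.64 ± 0.17 (limma adjusted p = 0.0775). On the deposited scaling both room air differences passed, at -0.54 ± 0.17 and -0.87 ± 0.17 (limma adjusted p = 0.0477 and 0.0146), and the step also passed with the floor at the 30th percentile (limma adjusted p = 0.0494). The hyperoxia call was lost under 4 of 33 other settings, among them leaving out hyperoxia day 7 replicate 2 or day 12 replicate 3 (limma adjusted p = 0.0682 and 0.115). The untested 1421827_at lay between 7.08 and 8.69, with 3 arrays at the floor, and had its lowest room air mean, 7.70, at day 7.

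Jag1, a ligand found on vessels and in the inner retina, was the member that rose. On 1421106_at the room air arrays read 8.81, 9.33 and 8.71 at day 7, 9.05, 9.20 and 8.98 at day 8, 9.34, 8.99 and 9.46 at day 10 and 9.39, 9.56 and 9.60 at day 12. The hyperoxia arrays read 8.75, 8.82 and 8.83 at day 7, 8.86, 8.57 and 8.90 at day 8, 9.15, 9.05 and 9.30 at day 10 and 9.57, 9.35 and 9.48 at day 12. In hyperoxia every array of days 10 and 12 was above every array of days 7 and 8, and in room air day 12 stood above day 7 by a margin of 0.06 between the nearest arrays.

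Jag1 1421106_at rose by 0.57 ± 0.15 from day 7 to day 12 in room air, 1.48-fold (limma adjusted p = 0.0157), and by 0.67 ± 0.15 in hyperoxia, 1.59-fold (limma adjusted p = 0.00491). The room air call ended without 1 of 4 arrays, room air day 7 replicate 1 or 3 or room air day 12 replicate 2 or 3, at adjusted p from 0.0529 to 0.103. The other Jag1 probe set, 1421105_at, read 8.38, 8.72 and 8.39 at day 7 and 8.38, 8.66 and 9.22 at day 12 in room air and 8.85, 8.28 and 8.98 and then 8.77, 8.37 and 9.21 in hyperoxia. These overlap, its differences were 0.26 ± 0.26 and 0.08 ± 0.26, and the 2 probe sets had a Pearson r of 0.35, so the rise rests on 1421106_at.

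**Figure D2:**
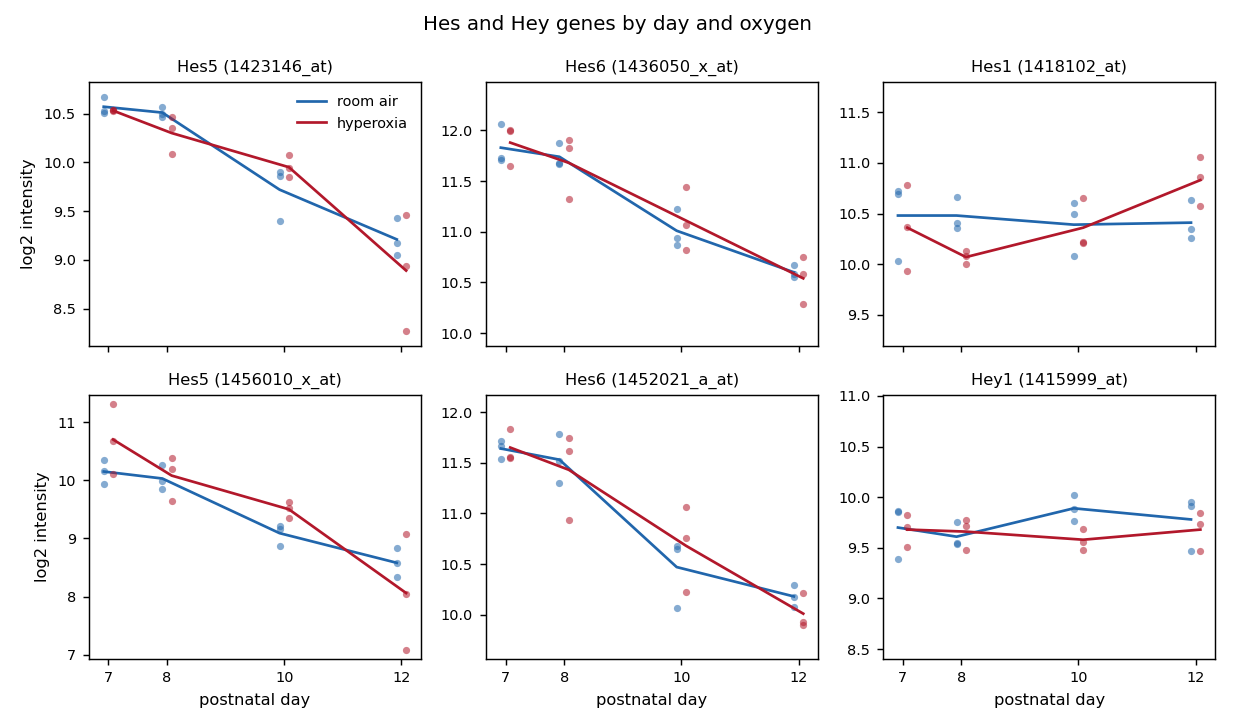
Log2 intensity (vertical axis) against postnatal day (horizontal axis) for the 6 Hes and Hey probe sets. Points are single arrays and lines join means of 3 arrays, blue for room air and red for hyperoxia; the Hes5 and Hes6 panels slope down in both conditions, and the Hes1 and Hey1 room air means stay between 10.39 and 10.48 and between 9.61 and 9.89.

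Hes5, the Notch target with 2 RBPJ words in the promoter window printed above, fell on both of its probe sets. On 1423146_at the room air arrays read 10.53, 10.67 and 10.51 at day 7, 10.50, 10.46 and 10.57 at day 8, 9.90, 9.86 and 9.40 at day 10 and 9.17, 9.05 and 9.43 at day 12. Days 7 and 8 overlapped and stood above both later days, and the highest day 12 array was just above the lowest day 10 array. The hyperoxia arrays read 10.54, 10.54 and 10.53 at day 7, 10.09, 10.35 and 10.46 at day 8, 9.85, 9.94 and 10.07 at day 10 and 9.46, 8.27 and 8.94 at day 12. The 4 days stood in falling order there with no overlap, and the day 12 arrays were the most spread, with replicate 2 the lowest.

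From day 7 to day 12, Hes5 1423146_at fell by 1.36 ± 0.20 in room air, 2.56-fold, from 10.57 ± 0.08 to 9.21 ± 0.19 (SD, n = 3; limma adjusted p = 0.000137). In hyperoxia it fell by 1.64 ± 0.20, 3.13-fold, from 10.53 ± 0.01 to 8.89 ± 0.60 (SD, n = 3; limma adjusted p = 1.81e-05). The other Hes5 probe set, 1456010_x_at, read 10.16, 9.94 and 10.35 at day 7 and 8.84, 8.34 and 8.57 at day 12 in room air, and fell by 1.57 ± 0.35 (limma adjusted p = 0.00463). In hyperoxia it read 11.31, 10.10 and 10.67 at day 7 and 9.07, 7.08 and 8.04 at day 12, and fell by 2.63 ± 0.35 (limma adjusted p = 3.88e-05), with replicate 2 of day 12 at the floor. The 2 probe sets had a Pearson r of 0.94. Without hyperoxia day 12 replicate 2 both Hes5 calls in hyperoxia remained.

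Hes6, a family member induced by neurogenic factors that opposes Hes1, fell alongside Hes5. On 1436050_x_at the room air arrays read 11.73, 11.71 and 12.06 at day 7, 11.67, 11.68 and 11.88 at day 8, 10.94, 11.22 and 10.87 at day 10 and 10.58, 10.67 and 10.55 at day 12. The hyperoxia arrays read 11.65, 12.00 and 11.99 at day 7, 11.32, 11.91 and 11.83 at day 8, 10.82, 11.44 and 11.07 at day 10 and 10.29, 10.75 and 10.58 at day 12. In room air days 10 and 12 stood apart from each other and from both earlier days, while in hyperoxia day 10 overlapped with day 8.

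Hes6 1436050_x_at fell by 1.23 ± 0.17 in room air, 2.35-fold, from 11.83 ± 0.20 to 10.60 ± 0.06 (SD, n = 3; limma adjusted p = 8.27e-05), and by 1.34 ± 0.17 in hyperoxia, 2.53-fold (limma adjusted p = 3.51e-05). Its other probe set, 1452021_a_at, read 11.54, 11.67 and 11.71 at day 7 and 10.08, 10.29 and 10.17 at day 12 in room air, and fell by 1.46 ± 0.22 (limma adjusted p = 0.000136). In hyperoxia it read 11.56, 11.55 and 11.83 and then 9.90, 9.93 and 10.21, and fell by 1.63 ± 0.22 (limma adjusted p = 4.11e-05). The probe sets had a Pearson r of 0.96.

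Hes1, the Notch effector also driven by other signals, had room air means between 10.39 and 10.48 at all 4 ages. Its room air arrays read 10.03, 10.72 and 10.69 at day 7, 10.66, 10.36 and 10.41 at day 8, 10.60, 10.50 and 10.08 at day 10 and 10.35, 10.26 and 10.63 at day 12, all overlapping, and days 12 and 7 differed by -0.06 ± 0.21 (95% interval -0.51 to 0.38). In hyperoxia they read 10.78, 10.37 and 9.93 at day 7, 10.00, 10.13 and 10.08 at day 8, 10.21, 10.65 and 10.22 at day 10 and 11.06, 10.86 and 10.57 at day 12. The day 12 arrays overlapped with day 7 and day 10, and the difference of 0.47 ± 0.21 between days 12 and 7 did not pass (limma adjusted p = 0.168).

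Hey1, a target best known from endothelium, stayed within 9.39 to 10.02 on all 24 arrays. Day 12 differed from day 7 by 0.07 ± 0.15 in room air (95% interval -0.24 to 0.39) and by 0.00 ± 0.15 in hyperoxia (-0.31 to 0.32). Its highest group was room air at day 10, with 10.02, 9.88 and 9.76, and its lowest hyperoxia at day 10, with 9.69, 9.48 and 9.56. These did not overlap, as for 21.5% of all probe sets at that day. The difference of -0.31 ± 0.15 did not pass (limma adjusted p = 0.462).

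**Figure D3:**
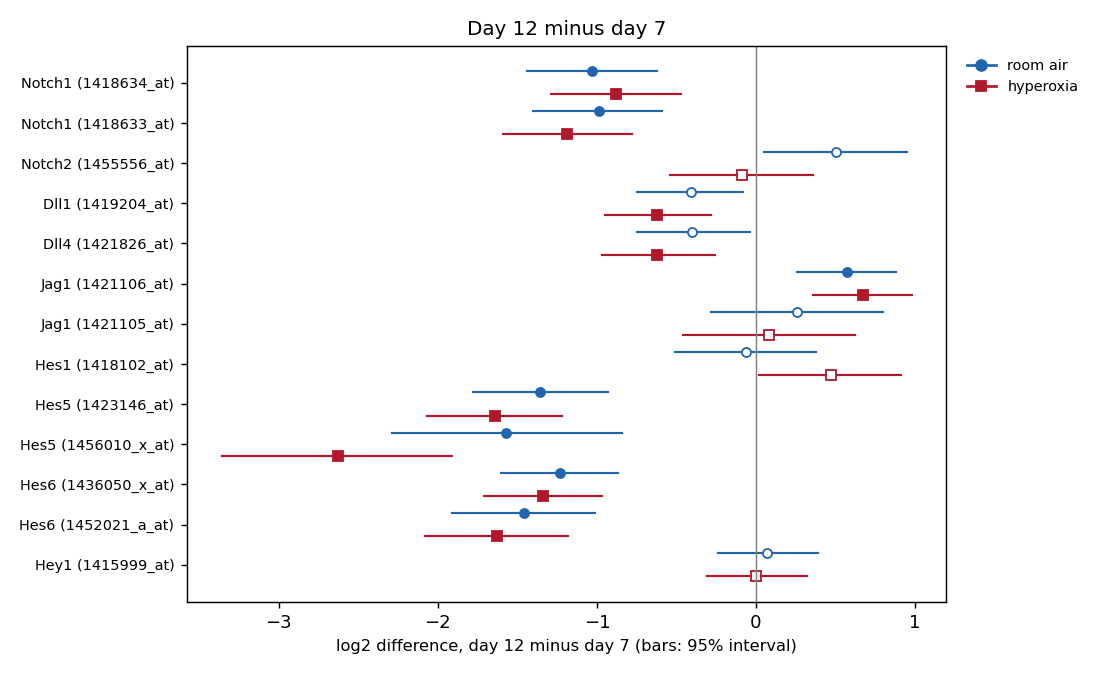
Log2 difference between day 12 and day 7 (horizontal axis) for the 13 probe sets tested (vertical axis), with bars for the 95% interval of the limma fit and 3 arrays per group. Blue circles are room air and red squares hyperoxia, filled where the adjusted p was under 0.05; Notch1, Hes5 and Hes6 are filled and left of 0 in both conditions.

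The steps between neighbouring ages in room air were tested as well. Between days 7 and 8 in room air 0 of 13 probe sets passed in limma, as did 0 of all 15838 (0%). An unadjusted p under 0.05 was held by 1 of the 13 and by 789 of all 15838. Between days 8 and 10, 3 of 13 passed, all lower, against 0.271% of all probe sets passing lower and 0.783% higher. They were 1418634_at of Notch1, given above, and both probe sets of Hes6: 1452021_a_at fell by 1.06 ± 0.22 (limma adjusted p = 0.0195) and 1436050_x_at by 0.73 ± 0.17 (limma adjusted p = 0.0469). Hes5 1423146_at was at -0.79 ± 0.20 in this step and missed the threshold (limma adjusted p = 0.0686). Between days 10 and 12, 0 of 13 passed, against 4 of all probe sets (0.0253%). An unadjusted p under 0.05 was held by 2 of the 13 and by 1057 of all 15838. The 3 calls of days 8 to 10 fell to 0 without room air day 8 replicate 3 or room air day 10 replicate 1, and to 0 with only the 6 arrays compared in the fit. In that last fit the calls over all 15838 probe sets fell as well, from 167 to 1.

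Between hyperoxia and room air no member passed in any comparison run. In limma 0 of 13 probe sets passed at day 7, day 8, day 10 or day 12 (background of all probe sets 0.0631%, 0.0821%, 0.0631% and 0.0126%), and 0 had an unadjusted p under 0.05 at any of these days. Averaged over the 4 days 0 of 13 passed as well, against 78 of all probe sets (0.492%), and 1 had an unadjusted p under 0.05. With so few calls on the whole array, a count of 0 is near the background and is not a result about these genes. A missed threshold does not show equal levels: over the 4 days the 95% intervals of the members reached from -1.24 to 1.27, both ends being those of Hes5 1456010_x_at.

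The largest differences from room air belonged to Hes5, Hes1 and Notch1. Hes5 1456010_x_at was at 0.55 ± 0.35 at day 7, 0.41 ± 0.35 at day 10 and -0.52 ± 0.35 at day 12, and 1423146_at of the same gene at -0.04 ± 0.20, 0.23 ± 0.20 and -0.33 ± 0.20 on those days. Hes1 was at -0.41 ± 0.21 at day 8, where hyperoxia lay below room air on all arrays, and at 0.42 ± 0.21 at day 12, where the groups overlapped (limma adjusted p = 0.964 and 0.598). Notch1 1418634_at was at 0.40 ± 0.20 at day 10 (limma adjusted p = 0.469). The hyperoxia arrays did not overlap with room air for 1 of 13 probe sets at day 7, 3 at day 8, 3 at day 10 and 1 at day 12, against 7.05%, 9.96%, 21.5% and 11.7% of all probe sets.

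Dll4 and 1 of the 2 tested Jag1 probe sets had negative differences from room air at most days. Dll4 1421826_at was at 0.01 ± 0.17, -0.31 ± 0.17, -0.31 ± 0.17 and -0.21 ± 0.17 at days 7, 8, 10 and 12, and at -0.21 ± 0.08 on average (unadjusted p = 0.0248, limma adjusted p = 0.474; 95% interval -0.38 to -0.03). Jag1 1421106_at was at -0.15 ± 0.15, -0.30 ± 0.15, -0.09 ± 0.15 and -0.05 ± 0.15, and at -0.15 ± 0.07 on average (limma adjusted p = 0.584). The other tested Jag1 probe set, 1421105_at, was at 0.21 ± 0.26, 0.02 ± 0.26, -0.12 ± 0.26 and 0.03 ± 0.26, and at 0.04 ± 0.13 on average. Endothelial markers were lower in the same arrays: 7 of 14 tested fell on average over the days and 13 were negative, with a median of -0.47, where 0.529% of the named genes fell. The mean over the 15 endothelial genes on the array was 9.53 to 10.04 in room air and 9.05 to 9.16 in hyperoxia at day 10, and 9.27 to 9.61 and 9.04 to 9.36 at day 7. At day 8 it was 9.27 to 9.7 and 9.04 to 9.32, which overlap, and at day 12 it was 9.58 to 9.88 and 9.12 to 9.33. Of 7 tested tip cell genes 1 fell on average and 6 were negative, with a median of -0.23. Of 6 pericyte and smooth muscle genes 1 fell and 4 were negative, with a median of -0.16. Pecam1, a defining endothelial marker, lay between 7.17 and 9.25 over the 24 arrays. The part of these markers in the Dll4 and Jag1 values was not tested.

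**Figure D4:**
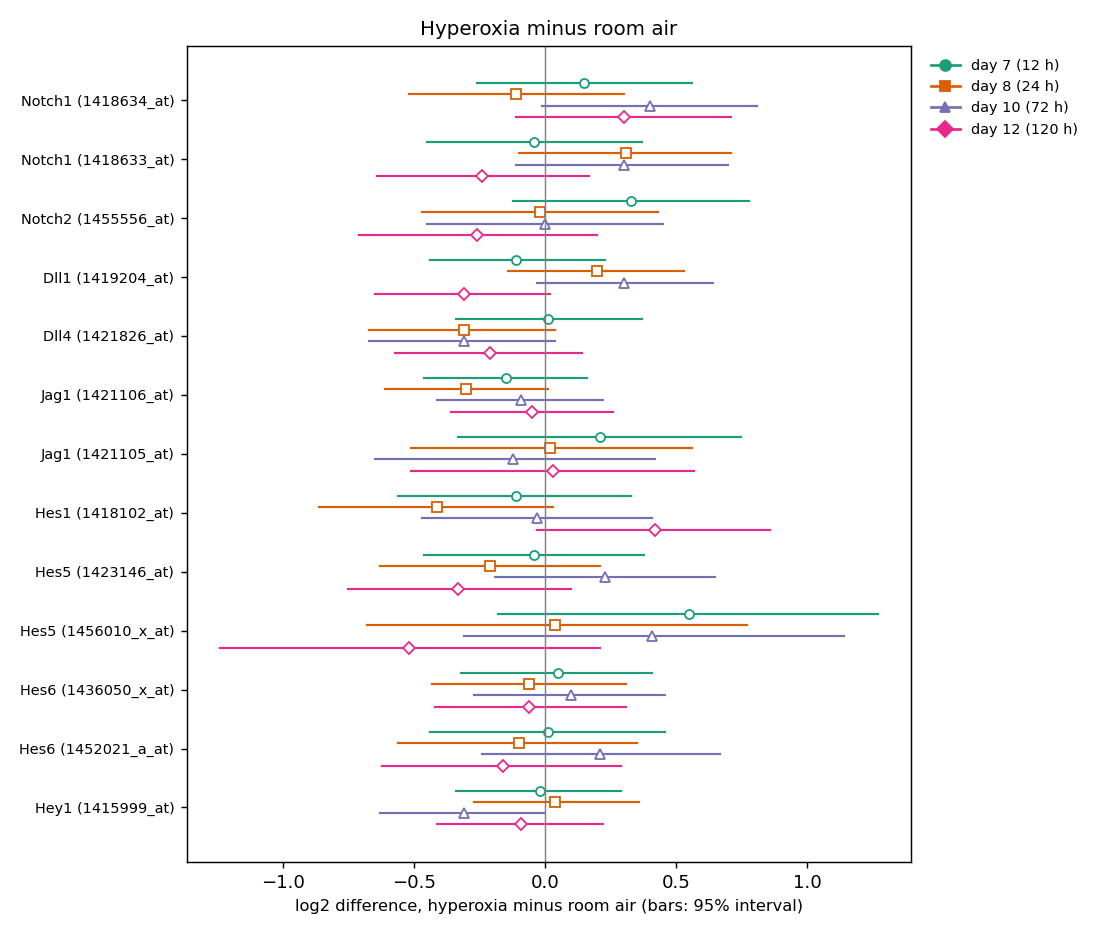
Log2 difference, hyperoxia minus room air (horizontal axis), for the 13 probe sets tested (vertical axis) at each of the 4 days, with bars for the 95% interval of the limma fit and 3 arrays per group. All symbols are open because no adjusted p was under 0.05; the widest bars are those of Hes5 1456010_x_at.

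The change from day 7 to day 12 was also compared between the conditions. Dll1 and Dll4 passed in hyperoxia and not in room air, but the differences between the changes were -0.21 ± 0.23 and -0.22 ± 0.24 (limma adjusted p = 0.892 and 0.886). The widest was that of Hes5 1456010_x_at at -1.07 ± 0.49 (unadjusted p = 0.0422, limma adjusted p = 0.771), and Hes5 1423146_at was at -0.29 ± 0.28. Of the 13 probe sets 0 passed limma's test of this difference, as did 0 of all probe sets (0%; 983 at an unadjusted p under 0.05). In limma's F test for an effect of hyperoxia that varies with the day, 0 of 13 and 0 of all probe sets passed (0%; 1039 at an unadjusted p under 0.05).

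Other genes of the pathway were read from 5 lists by role, each gene by its brightest probe set. Apart from the members, 44 genes were tested, and between days 7 and 12 a count of 6 fell and 0 rose in each condition. The median over the 44 was -0.15 in room air and -0.08 in hyperoxia. In limma's test of whether the change from day 7 to day 12 differed between the conditions, 0 of the 44 passed, as did 0 of all probe sets. Of the 9266 named genes tested, 5.49% fell and 8.56% rose in room air, and 7.30% and 6.84% in hyperoxia.

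Among receptors and ligands, Dll3, a Delta-like protein that acts inside the cell carrying it, fell by 1.22 ± 0.19 in room air and by 1.08 ± 0.19 in hyperoxia (limma adjusted p = 0.000171 and 0.000625). Dlk1, a non-canonical ligand, fell by 0.92 ± 0.25 in room air (limma adjusted p = 0.0202) and was at -0.59 ± 0.25 in hyperoxia (limma adjusted p = 0.141). Notch3 and Notch4 did not pass in either condition, at 0.13 ± 0.15 and -0.04 ± 0.24 in room air. Jag2, the other Jagged ligand, was at -0.04 ± 0.15 in room air and 0.33 ± 0.15 in hyperoxia and did not pass. With the members included, 3 of 11 genes of this list fell and 1 rose in room air, and 4 fell and 1 rose in hyperoxia.

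Of 12 genes of cleavage and glycosylation, 1 fell in each condition: Mfng, a glycosyltransferase that modifies Notch receptors, by 0.53 ± 0.15 in room air and by 0.79 ± 0.15 in hyperoxia (limma adjusted p = 0.0195 and 0.00103). Of 14 genes of the nuclear complex and its repressors, 1 fell in each condition, the co-repressor Ctbp1, by 0.34 ± 0.10 in both (limma adjusted p = 0.0328 and 0.0315). Rbpj itself was at -0.59 ± 0.22 in room air and -0.27 ± 0.22 in hyperoxia and did not pass (limma adjusted p = 0.094 and 0.5).

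Of 11 trafficking and antagonist genes, 2 fell in each condition. Nrarp, a Notch target that feeds back on the pathway, fell by 0.65 ± 0.12 in room air and by 0.65 ± 0.12 in hyperoxia (limma adjusted p = 0.000948 and 0.000969). Dtx1, a Deltex ubiquitin ligase that binds Notch, fell by 0.55 ± 0.12 and by 0.53 ± 0.12 (limma adjusted p = 0.00405 and 0.00569). Numb, the endocytic Notch inhibitor, was at 0.00 ± 0.11 and 0.07 ± 0.11. Of 9 Hes and Hey genes 5 were tested, and Heyl fell by 0.56 ± 0.18 in hyperoxia (limma adjusted p = 0.043) and was at -0.32 ± 0.18 in room air.

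Neurogenic factors, which Hes proteins are known to repress, passed in part. In room air 3 of 4 tested fell, where 5.49% of the named genes fell: Neurog2 by 1.84 ± 0.24, Neurod4 by 0.56 ± 0.14 and Neurod1 by 0.46 ± 0.13 (limma adjusted p = 4.02e-05, 0.0129 and 0.0253). In hyperoxia 1 of 4 fell, where 7.3% of the named genes did, as Neurog2 fell by 1.97 ± 0.24 (limma adjusted p = 1.87e-05). Neurod4 at -0.27 ± 0.14 and Neurod1 at -0.22 ± 0.13 did not pass there (limma adjusted p = 0.255 and 0.326). Atoh7 passed in neither condition (limma adjusted p = 0.383 in room air and 0.858 in hyperoxia). In limma's test of whether the change from day 7 to day 12 differed between the conditions, 0 of these 4 genes passed, as did 0 of all probe sets.

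Between hyperoxia and room air 0 of the 44 other pathway genes passed at any of the 4 days or on average. The lowest adjusted p among the days was that of Psen2, a catalytic subunit of the protease that cleaves Notch, at 0.52 ± 0.13 at day 10 (limma adjusted p = 0.17). On average over the days it was that of Notch4, a receptor of endothelium, at -0.36 ± 0.12 (limma adjusted p = 0.305).

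**Figure D5:**
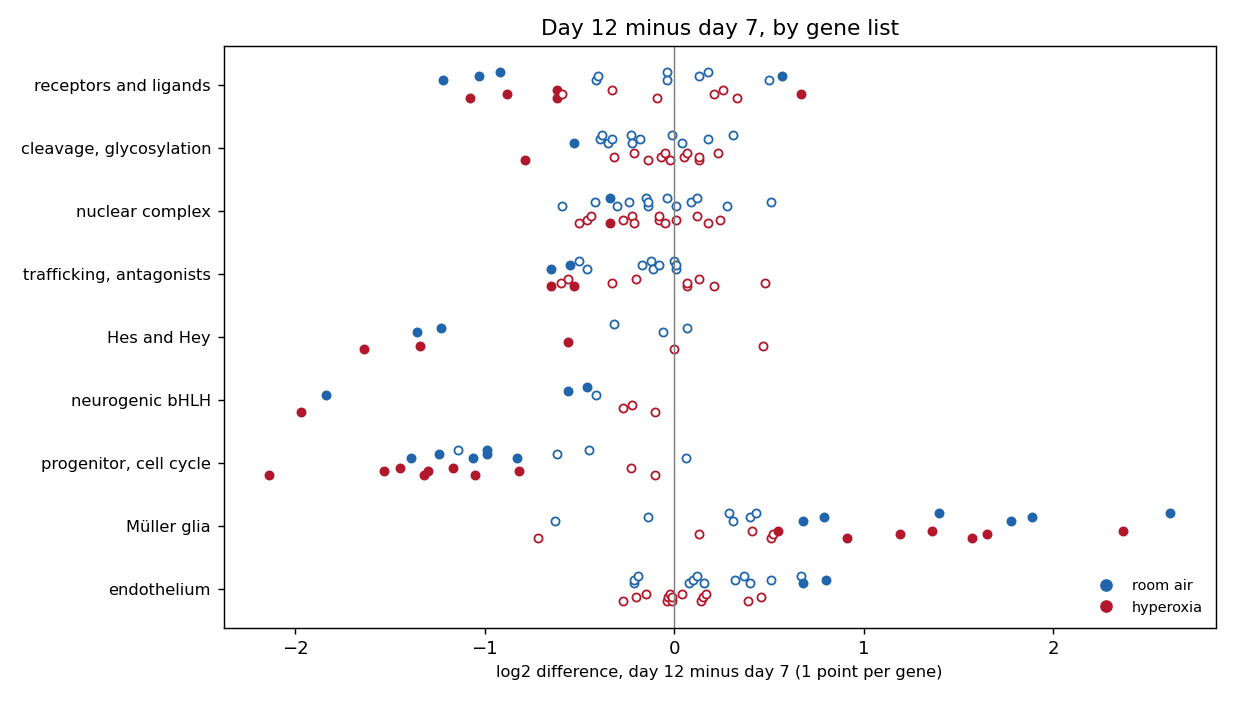
Log2 difference between day 12 and day 7 (horizontal axis) for the tested genes of 9 lists (vertical axis), 1 point per gene by its brightest probe set. Blue is room air and red hyperoxia, and filled points had an adjusted p under 0.05; filled points of the progenitor and cell cycle list lie left of 0 and those of the Müller glia list right of it.

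Markers of cell types moved with age over the same days. Of 10 tested genes of progenitors and the cell cycle, 6 fell in room air and 8 in hyperoxia, with 0 rising, and their median differences were -0.99 and -1.23. Of all named genes tested, 5.49% fell and 8.56% rose in room air, and 7.3% fell and 6.84% rose in hyperoxia. The mean over the 12 genes of that list on the array was 9.74 to 10.05 at day 7 and 8.99 to 9.19 at day 12 in room air, and 9.83 to 10.05 and 8.68 to 8.97 in hyperoxia. Of 12 Müller glia genes, 6 rose in room air and 7 in hyperoxia with 0 falling, and the mean over the list was 11.32 to 11.50 at day 7 and 12.13 to 12.29 at day 12 in room air, and 11.23 to 11.42 and 12.06 to 12.29 in hyperoxia. Genes of other cell types moved too, with 3 of 6 rod and 3 of 5 ganglion cell genes rising in room air. So did 2 of 6 pericyte and smooth muscle genes and 1 of 4 astrocyte genes. In hyperoxia these counts were 2, 2, 1 and 2, and in either condition 0 genes of these lists fell. In room air 1 of 8 microglia and macrophage genes fell. Of 14 endothelial genes 2 rose in room air and 0 in hyperoxia, with 0 falling. Of 7 tip cell genes 1 fell in room air and 2 in hyperoxia, with 0 rising. A mean over 8 pigment epithelium genes, a neighbouring tissue, was 9.20 to 11.02 at day 7 and 10.57 to 11.38 at day 12 in room air, and 9.07 to 10.22 and 10.45 to 11.79 in hyperoxia. The part of progenitors, Müller glia and the other cell types in the Notch values was not tested. With lens and pigment scores as covariates, 6 of 13 member probe sets passed in room air, all lower, and 5 of 13 in hyperoxia, namely 1418633_at of Notch1 and both probe sets of Hes5 and Hes6. Over all 15838 probe sets tested the calls fell as well with these covariates, from 1955 to 1335 in room air and from 1993 to 695 in hyperoxia.

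The members that fell with age in either condition were positively correlated over the arrays, to differing degrees. Over the 24 arrays, by brightest probe set, Pearson r was 0.86 between Hes5 and Hes6, 0.83 between Notch1 and Hes6 and 0.73 between Dll1 and each of Hes5 and Hes6. It was 0.68 between Notch1 and Hes5 and 0.61 between Notch1 and Dll1. Dll4 was at 0.60 to 0.62 with Notch1, Hes5 and Hes6 and at 0.42 with Dll1. Jag1 ran opposite, at -0.85 with Hes6 and -0.75 with Dll1. Hes1 and Hey1 had r between -0.39 and 0.34 with every other member. These values describe arrays that share their day, and they follow the same age differences given above.

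The genes whose pattern was most like that of each member that changed in room air were found by the highest Pearson r over the 24 arrays, 1 probe set per gene. For Hes5 these were Cdk4, a cell cycle kinase, at 0.94, Neurog2 at 0.94 and Nnat at 0.93. For Hes6 they were Ppp1r14b at 0.98, Sat1 at 0.97 and Tspan15 at 0.95. For Notch1 they were Prrc1 at 0.90, the cyclin Ccnd1 at 0.88 and Tspan15 at 0.88, and for Jag1 they were Arhgap24, Chst2 and Atp1b3, each at 0.89. Of the genes most like Notch1, Ccnd1 fell by 1.24 ± 0.15 between days 7 and 12 in room air (limma adjusted p = 2.29e-05). Prrc1 and Tspan15 differed by -0.68 and -0.78. The members were taken for a change with age, so a change with age in genes most like them is no separate result.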

How the data were processed

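The authors deposited 1 linear intensity per probe set and array, of which 64 probe sets are controls. The software they used is not given in the sources used here. The array means, with 2% of the values trimmed from both tails, were 1500.35 to 1500.4, which shows a scaling to 1 trimmed mean; array medians still ran from 570.1 to 679.7.

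Here log2 was taken, the arrays were quantile normalized on that scale, and values under the 20th percentile of the deposited table (135.6) were then raised to it. Controls were left out, as were probe sets in the lowest 30% by mean. This left 15838, with 0.34% of values at the floor, where differences are understated. Limma (version 3.58.1, R 4.3.3) was fitted to 8 group means, with 16 residual and 3.54 prior degrees of freedom, and checked on simulated data. Probe sets were named where the platform annotation gave 1 symbol: 20380 had 1, 691 several and 1555 none. Figures used matplotlib 3.10.9 in Python 3.11.15.

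Every member was named with all its probe sets. From each pathway list the called genes were named, at most 6; Notch3, Notch4, Jag2, Rbpj, Numb and genes given for hyperoxia against room air were added after their values were seen. Members and lists were chosen with earlier results of these data known. The highest correlation between 2 arrays was 0.9847 and 0 pairs were identical. Same-numbered arrays deviated together, with every correlation over 0.1, in 3 of 9 comparisons (hyperoxia against room air at day 12, day 12 against day 7 in hyperoxia, and day 10 against day 8 in room air). Alternatives changed the scaling, floor, filter, prior, arrays in the fit, replicate block, lens and pigment covariates, and left out arrays.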

Additional observations from a re-analysis of the deposited data

How the results depend on the processing

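Of 143 differences of the 13 probe sets, 19 passed. Under 34 other settings 11 of these were never lost and 0 reversed, and 4 of the 124 others passed under some setting. In room air 7 member probe sets passed between days 7 and 12, and 6 to 7 did without 1 array. In hyperoxia 9 passed, 8 to 9 did without 1 array, and 5 with lens and pigment scores as covariates, where Notch1 1418634_at (adjusted p = 0.146), Dll1 (0.213), Dll4 (0.289) and Jag1 (0.186) were lost. Dll1 was also lost without hyperoxia day 7 replicate 1 or 3 or hyperoxia day 12 replicate 2, and Dll4 without hyperoxia day 7 replicate 2 or hyperoxia day 12 replicate 3 (adjusted p from 0.0542 to 0.115); both were lost with only the arrays compared in the fit. Between days 8 and 10 in room air 3 passed. This became 5 on the deposited scaling, 1 with the covariates, 0 with only the arrays compared and 0 to 4 without 1 array, the 0 being without room air day 8 replicate 3 or room air day 10 replicate 1. Calls over all 15838 probe sets in this step went from 167 to 210 on the deposited scaling, 137 with the covariates and 1 with only the arrays compared. Jag1 in room air did not pass on the deposited scaling (0.46 ± 0.16, adjusted p = 0.0625), with the covariates (adjusted p = 0.0826) or with only the arrays compared (adjusted p = 0.121). Member counts between hyperoxia and room air were 0 under every setting run, also without 1 array. With the replicate block the counts were 8 between days 7 and 12 in room air, where Notch2 was added (0.50 ± 0.16, adjusted p = 0.0492), 9 in hyperoxia and 3 between days 8 and 10. Over all 15838 probe sets the calls went from 1955 to 2286, from 1993 to 2358 and from 167 to 237 in these comparisons. The block changed no member call in the 3 comparisons where same-numbered arrays deviated together. The labels do not say that the numbers pair the arrays. Choices of scaling moved the median of all probe sets by less than 0.1. The cause of these changes was not tested. The number of arrays limits the precision: members' standard errors at 1 day ran from 0.15 to 0.35.

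Leaving out the 2 arrays farthest from their groups, an alternative chosen after seeing the data, left 7 calls in room air and 8 in hyperoxia between days 7 and 12. Calls over all 15838 probe sets went from 1955 to 2267 in room air and from 1993 to 1878 in hyperoxia.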
